A study of Rattus norvegicus with 6 samples.

Results

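The anoctamins, also called TMEM16 proteins, are a family of membrane proteins, and Ano6 is the member whose level was among the most reduced in rat motor neuron cultures after a short exposure to camptothecin. The family was taken as the 10 genes Ano1 to Ano10. A gene was used where a row of the deposited table carried its symbol alone, and 4 of the 10 had such a row, among 14506 genes measured in that way. These were Ano1, Ano4, Ano6 and Ano7, with 1 row each. Ano2, Ano3, Ano5, Ano8, Ano9 and Ano10 had no row with their symbol and were not analysed here. The family was selected on one measured value, the log2 change of Ano6 in this same comparison, so the changes of its members, and the calls that the fit over all clusters gives them, are a description from which nothing is read.

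Primary motor neuron cultures were prepared from rat embryos of embryonic day 13.5 and kept for 2 days in vitro. In one group 3 cultures received 1 microM camptothecin for 2 h, and in the other 3 cultures received DMSO, the solvent, for the same time. Camptothecin, an alkaloid, poisons topoisomerase 1 by holding the enzyme on the DNA it has cut. The labels name no strain and no genetic change, and the 3 samples of each treatment are labelled as biological replicates with no word on whether dissections were separate. Each sample was hybridised to 1 Affymetrix Rat Gene 1.0 ST array, and values are log2 expression values per transcript cluster, the set of probes that the array assigns to a transcript.

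Anoctamins respond to a rise of intracellular calcium in one of several ways. Ano1 and Ano2 are calcium-activated chloride channels. Ano6 is a calcium-activated scramblase, which lets phospholipids cross between the leaflets of the plasma membrane and so exposes phosphatidylserine on the cell surface, and it also conducts ions. Loss of Ano6 causes Scott syndrome, a bleeding disorder in which platelets fail to expose phosphatidylserine. Ano4 is a member found mainly in the nervous system, and Ano7 is best known from the prostate.

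The sequences upstream of Ano6 and Ano4 are shown because these are the measured members with lower values after camptothecin. Each is the stretch of 250 bases before an annotated RefSeq transcript start in the rat assembly GRCr8, printed 5′ to 3′, with every CG dinucleotide in capitals. That of Ano6 lies at chr7:128812881-128813130 on the plus strand, and that of Ano4 at chr7:25540201-25540450 on the minus strand.
Ano6: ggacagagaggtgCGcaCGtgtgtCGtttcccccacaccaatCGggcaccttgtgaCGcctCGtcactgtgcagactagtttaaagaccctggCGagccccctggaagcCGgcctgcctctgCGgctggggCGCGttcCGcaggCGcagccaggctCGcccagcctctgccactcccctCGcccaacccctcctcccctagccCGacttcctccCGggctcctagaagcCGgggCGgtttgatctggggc
Ano4: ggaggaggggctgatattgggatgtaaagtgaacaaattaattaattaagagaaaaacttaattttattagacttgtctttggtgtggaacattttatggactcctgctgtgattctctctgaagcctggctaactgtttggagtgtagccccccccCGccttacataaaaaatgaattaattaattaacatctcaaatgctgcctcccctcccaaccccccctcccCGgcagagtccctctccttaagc

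The upstream windows of these members differ in base composition. The Ano6 window holds 19 CG dinucleotides and 68% G or C, and the Ano4 window holds 2 and 43.6%. Among 27455 windows of the same length, 1 per gene, the medians were 6 CG dinucleotides and 52% G or C. The windows of Ano1 (16 CG, 74.8%) and Ano7 (1 CG, 52.4%) differ in the same way. The part of base composition in the changes of these genes was not tested. Both genes shown have other annotated starts. The Ano6 window begins 39 bases downstream of the earliest annotated start of its gene, and the Ano4 window 85361 bases downstream of its own. On both strands, the GC box GGGCGG occurs 5 times in the Ano1 window and 1 time in that of Ano6, against a share of 32.4% of all windows with at least 1. The box CCAAT occurs 1 time each in the Ano6 and Ano4 windows (34.3% of all windows). Neither TATAAA (13.1%) nor the cAMP response element TGACGTCA (1.7%) occurs in any of the 4.

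Ano6 was lower on every camptothecin array. The log2 values were 9.33, 9.36 and 9.17 on the DMSO arrays and 7.49, 7.39 and 7.20 on the camptothecin arrays. The groups did not overlap, and a gap of 1.68 separated the lowest DMSO array from the highest camptothecin array. The mean was 9.28 ± 0.10 (SD, n = 3) with DMSO and 7.36 ± 0.15 (SD, n = 3) with camptothecin. The difference, camptothecin minus DMSO, was -1.93 on the log2 scale with limma's standard error (SE) of 0.10 and a 95% interval from -2.16 to -1.70, so the level was 3.8-fold lower. Set against the DMSO mean, the camptothecin arrays differed by -1.80, -1.90 and -2.09. In the order of changes over all genes Ano6 stood at place 6 from the lowest, between Serpinb2 (-1.94) and Pdzrn4 (-1.87).

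Ano4 was also lower on every camptothecin array, by a smaller amount. Its values were 7.39, 7.64 and 7.50 with DMSO and 6.79, 6.83 and 6.91 with camptothecin. The groups did not overlap, with a gap of 0.48 between them. The mean went from 7.51 ± 0.12 (SD, n = 3) to 6.84 ± 0.06 (SD, n = 3), a difference of -0.67 (SE 0.08, 95% interval -0.87 to -0.47), or 1.59-fold lower.

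Ano1, the calcium-activated chloride channel, lay at similar values in both treatments. Its values were 5.26, 5.45 and 5.70 with DMSO and 5.21, 5.54 and 5.55 with camptothecin. The groups overlapped, and the difference was -0.04 (SE 0.14, 95% interval -0.37 to 0.30). Ano7 overlapped in the same way. Its values were 5.67, 5.76 and 5.81 with DMSO and 5.72, 5.76 and 5.65 with camptothecin, and the difference was -0.03 (SE 0.07, 95% interval -0.20 to 0.13). Both genes lay below 6.28, the median of all cluster means, and are called dim here, whereas Ano4 and Ano6 lay above it. A dim probe set can hold little signal from its gene, so these intervals bound the change of the measured value and do not show that the transcripts were unchanged.

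**Figure D1:**
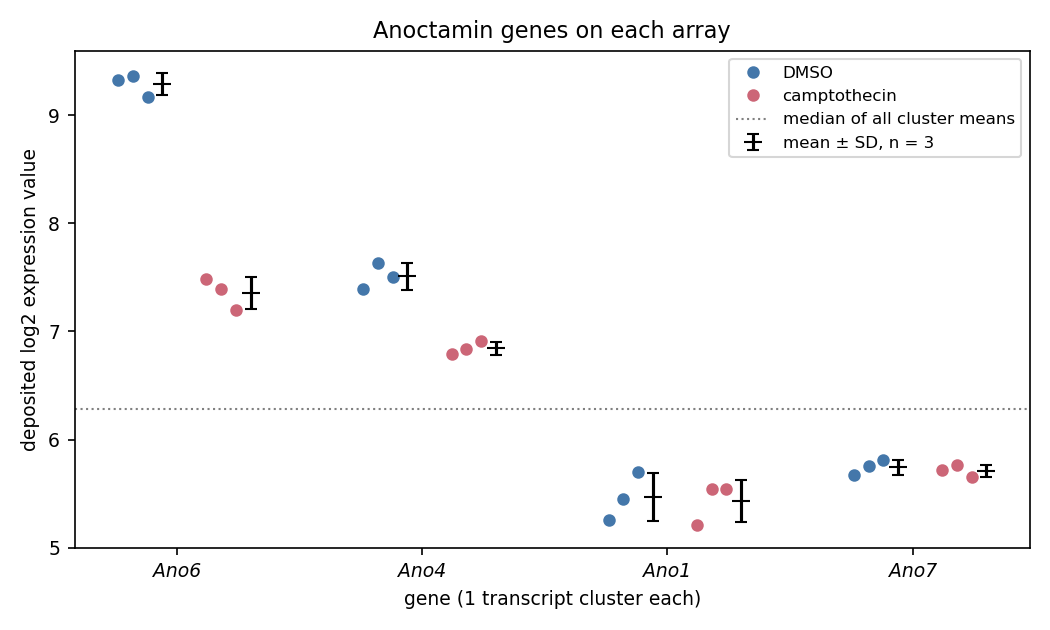
Deposited log2 expression values (vertical axis) of the 4 measured anoctamin genes on the 3 DMSO and 3 camptothecin arrays, with mean ± SD and the median of all cluster means as a dotted line. Ano6 and Ano4 lie above the dotted line with separate groups, and Ano1 and Ano7 lie below it with overlapping groups.

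By the fit over all clusters (limma, Benjamini-Hochberg adjusted p under 0.05), 2 of the 4 measured members were lower, Ano6 and Ano4, and 0 were higher. At an unadjusted p under 0.05 the counts were also 2 and 0. Over all 14506 genes 9.35% were lower and 11.3% higher. That split depended on the scale, since higher calls made up 54.8% of all calls in the deposited values, 36.1% under median centring and 7.62% under centring on ribosomal protein genes. The groups did not overlap for those 2 members, and in the same direction for 15.5% of all genes. The median change was -0.35 over the 4 members and 0.06 over all genes. Since the comparison itself brought the family forward, nothing is read from these counts. Fewer cells that express a gene and less of its RNA per cell cannot be told apart in such samples.

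The camptothecin arrays had medians of 6.31 to 6.33 and the DMSO arrays of 6.22 to 6.28. Over all clusters, arrays of different treatments correlated with Pearson's r of 0.983 to 0.985, and arrays of the same treatment with 0.992 to 0.995. Of 11 measured motor neuron markers 5 were above the median of cluster means, among them Lhx3, Nefl and Ret. Another of the 5, Nefh, was above that median of 6.282 only through the camptothecin arrays. Its mean was 6.87 there and 6.277 with DMSO. Isl1, Isl2 and the acetylcholine transporter gene Slc18a3 were dim, and the labelled cell type is thus only partly shown by these values. Of 11 markers of spinal interneurons or sensory neurons 10 were above it. In that list 5 of 11 genes were lower and 0 higher, where 9.35% and 11.3% of all genes were. Its mean log2 value was 7.66 to 7.78 on the camptothecin arrays and 7.99 to 8.05 on the DMSO arrays. The other 6 genes of that list did not pass and had changes above 0, from 0.10 (Lhx1) to 0.26 (Lhx5), so the list median was 0.10 although its mean was lower with camptothecin. The part of these markers in the values of Ano6 and Ano4 was not tested. In the motor neuron list 3 of 11 genes were higher and 0 lower, where 11.3% and 9.35% of all genes were. Its mean log2 value was 6.95 to 7.09 on the camptothecin arrays and 6.95 to 6.97 on the DMSO arrays. The 3 were Nefh (0.59), Nefm (0.42) and the dim Prph (0.31). Slc5a7 (-0.34), Isl1 (-0.27), Lhx4 (-0.20), Ret (-0.17) and Slc18a3 (-0.11) had changes below 0 without passing. Nefl, Isl2 and Lhx3 had changes above 0 without passing, and the list median was 0.02. The 5 lists of other cells were progenitors or astroglia, oligodendrocytes or Schwann cells, fibroblasts, endothelial, blood or microglial cells, and skeletal muscle. In these lists 3 genes in all were lower and 1 higher, of 35 measured, against the same shares of all genes.

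The genes with values closest to those of Ano6 over the 6 arrays were Hivep2, Lgr5, Htr2a, Pdzrn4 and Kdm4c. Likeness was measured as the root mean square difference between the array values of a gene and those of Ano6, after the DMSO mean of each gene was subtracted, over 14306 other genes. That difference was 0.12 for Hivep2, a zinc finger transcription factor, 0.14 for Lgr5, a receptor for R-spondins, and 0.15 for both Htr2a, a serotonin receptor, and Pdzrn4. It was 0.17 for Kdm4c, a histone lysine demethylase, against a median of 1.41 over all genes compared. Their changes ran from -2.07 (Lgr5) to -1.72 (Kdm4c). Of these 5 genes 4 span 100 kb or more in GRCr8, and Htr2a spans 68.1 kb. Among all genes with a span, 1631 reach 100 kb and 12843 do not. The 5 were picked for a fall like that of Ano6, and 34.8% of the long genes were lower against 6.13% of the shorter ones. Nothing is therefore read from this count. No other measured anoctamin was that close, with differences of 0.90 for Ano4, 1.34 for Ano7 and 1.36 for Ano1. With the DMSO mean subtracted, this measure mostly follows the size of the change, on which Ano6 was selected. Nothing is read from the distance of the other members.

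**Figure D2:**
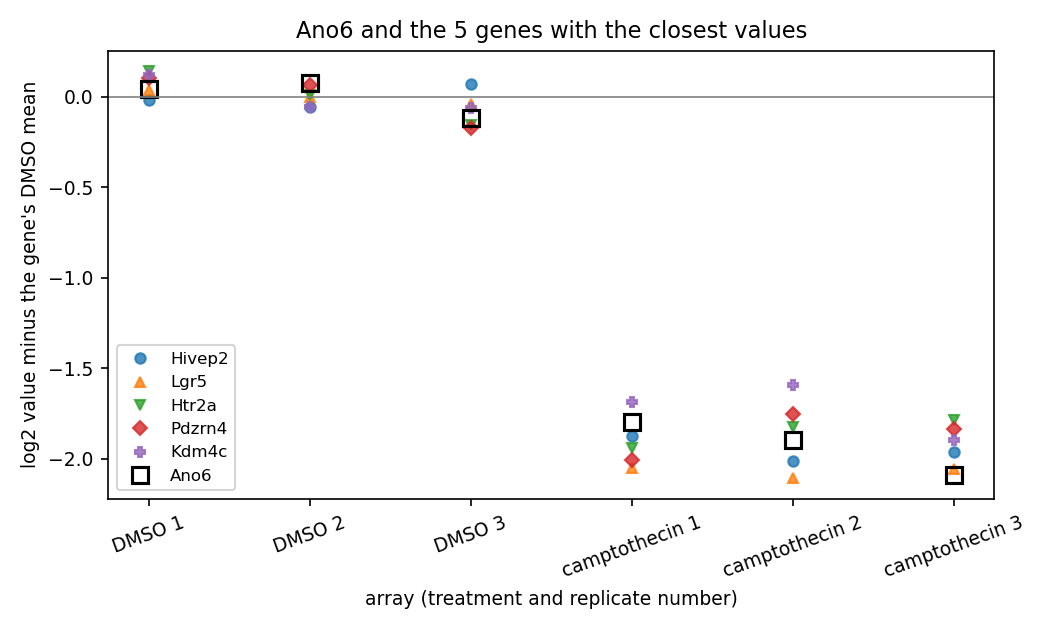
Log2 values minus the DMSO mean of each gene (vertical axis) on the 6 arrays (horizontal axis) for Ano6, as open squares, and the 5 genes with the smallest root mean square difference from it. On the camptothecin arrays Ano6 lies at -1.80, -1.90 and -2.09, within the spread of the other 5 on the first and the second and below all of them on the third.

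Genomic span, the distance from the first to the last annotated base of a gene in GRCr8, was not used to choose the family, although the changes set beside it here include the one that was. Ano6 spans 180 kb, Ano4 409.4 kb, Ano1 148.7 kb and Ano7 27.8 kb. Of the members with no row, Ano2 (341.4 kb), Ano3 (314.5 kb), Ano10 (119.1 kb) and Ano5 (101.1 kb) are also long, and Ano9 (21.2 kb) and Ano8 (9.38 kb) are short. Of the 1257 genes of 100 to 300 kb, 33.3% were lower, and 4 had a lower change than Ano6, a place that its selection for a large fall had fixed. Ano1 is in the same span class, where 785 genes had a lower change. Of the 374 genes of 300 kb or more, 40.1% were lower, and 60 had a lower change than Ano4. Ano7 lies among 4279 genes of 10 to 30 kb, of which 3.67% were lower. The part of span in these values was not tested.

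**Figure D3:**
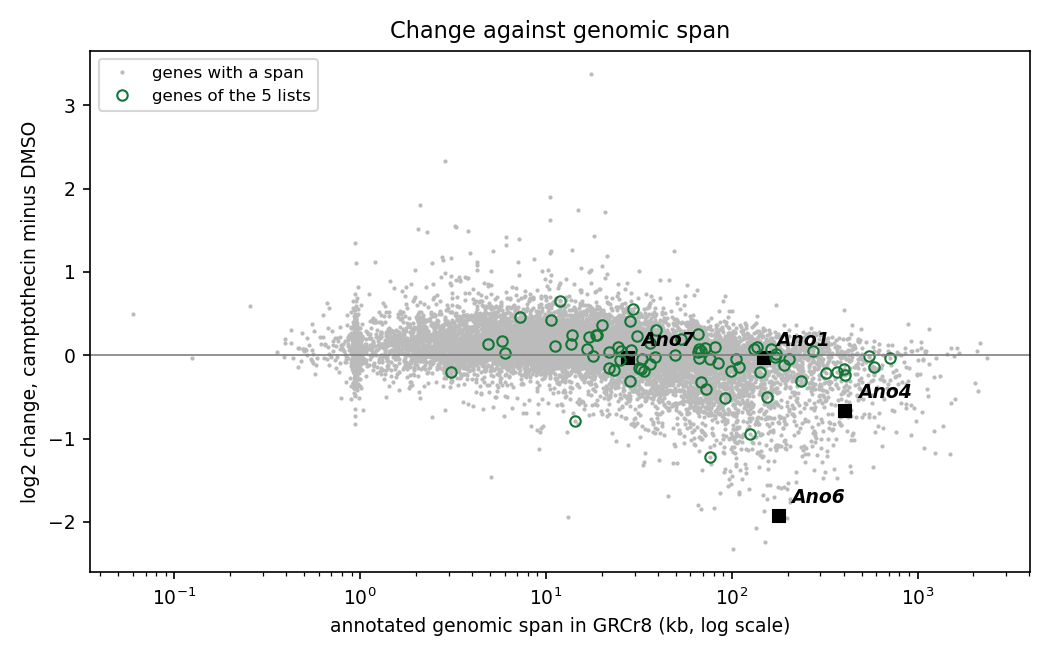
Log2 change, camptothecin minus DMSO (vertical axis), against annotated genomic span in kb on a log scale (horizontal axis) for all genes with a span, with the 4 anoctamins as black squares and the genes of 5 related lists as open circles. Ano6, selected for its large fall, lies at the lower edge of genes of its span, and Ano4 lies among others of its span.

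For each member the nearest protein-coding gene on either side that had a row of its own was taken, 8 in all, and 1 of these was lower, 0 were higher and 7 did not pass, where 9.35% and 11.3% of all genes were lower and higher. At an unadjusted p under 0.05 the counts were 2 lower and 2 higher. Beside Ano6 lie Dbx2, a homeobox factor of the neural tube (-0.20, SE 0.11, adjusted p = 0.279 by limma), and Slc38a1, a neuronal glutamine transporter (-0.23, SE 0.07, adjusted p = 0.0549). Dbx2 was dim. The values of Slc38a1 were 11.20, 11.20 and 11.10 with DMSO and 10.88, 10.97 and 10.96 with camptothecin. These groups did not overlap although the gene missed the threshold. Slc38a1 is 619.6 kb away, with 2 genes between them that had no row.

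Beside Ano4 lie Slc5a8, a monocarboxylate transporter (-0.02, SE 0.12), and Nr1h4, a bile acid receptor (0.05, SE 0.12). Both were dim and neither passed. Beside Ano7 lie Ppp1r7 (0.19, SE 0.08) and Hdlbp (0.17, SE 0.06), and neither of these passed. The neighbour that fell was Fadd, an adaptor of death receptors, which lies 5.33 kb from Ano1. Its values were 6.19, 6.27 and 6.27 with DMSO and 5.64, 5.75 and 5.84 with camptothecin, a difference of -0.50 (SE 0.08, adjusted p = 0.00591 by limma), lower on 3 of 3 arrays. Fadd was dim and spans 6.18 kb. On the other side of Ano1, the growth factor gene Fgf3, also dim, changed by 0.07 (SE 0.10) without passing.

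**Figure D4:**
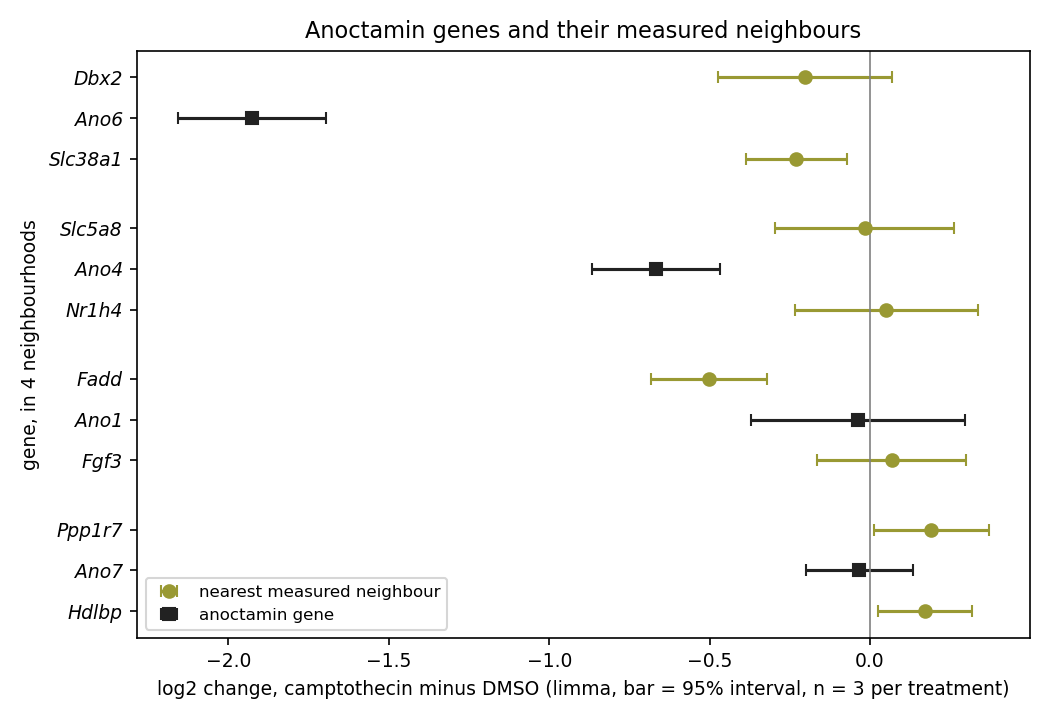
Log2 change, camptothecin minus DMSO (horizontal axis), with limma's 95% interval for each anoctamin (black squares) and its nearest measured neighbours (circles), n = 3 per treatment. The intervals of Ano6, Ano4, Fadd and Slc38a1 lie below 0, and those of Ppp1r7 and Hdlbp lie above it. Ano6 was selected for its large fall, so its place below both of its neighbours was fixed by that choice.

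Other genes of the same processes were taken from 5 lists, of which 73 of 95 members were measured. Of these 9 were lower, 8 were higher and 56 did not pass. Dim genes made up 31 of the 73, and a gene that did not pass is not shown to be unchanged. In the lists 21 genes span 100 kb or more, and 3 of those were lower and 0 higher, where 34.8% of all genes of that span were lower and 1.84% higher. Of the other 52 genes 6 were lower and 8 higher, where 6.13% and 12.5% of all genes of shorter span were.

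Among the other phospholipid scramblases and their partners, 2 of 15 measured genes were lower (13.3%, against 9.35% of all genes) and 2 were higher (13.3%, against 11.3%). The list median was 0.00. Tmem41b, a scramblase of the endoplasmic reticulum, changed by -0.79 (SE 0.12, limma's adjusted p = 0.00496) and so fell. Its values were 8.34, 8.22 and 8.14 with DMSO and 7.29, 7.68 and 7.36 with camptothecin, without overlap. Xkr6, which belongs to the family of the scramblase Xkr8 and was named after its value was seen, differed by -0.31 (SE 0.08, adjusted p = 0.0379). Bsg (0.46, SE 0.11), a partner of Xkr8 at the plasma membrane, and Atg9a (0.42, SE 0.08), a scramblase of autophagy, rose. Xk, Xkr4, Xkr5, Xkr7, Xkr9, the 4 measured Plscr genes, Vmp1 and Nptn did not pass. With 1 array left out, the call of Xkr6 was lost for camptothecin replicates 1 and 2 and each DMSO array (-0.33 to -0.25), that of Bsg for camptothecin replicates 2 and 3 and each DMSO array (0.38 to 0.49), and that of Atg9a for DMSO replicates 1 and 2 (0.40 to 0.41). Centring the arrays on ribosomal protein genes also ended the calls of Bsg (0.21) and Atg9a (0.17), and median centring that of Bsg (0.39, adjusted p = 0.0550 by limma).

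Those flippases that return phosphatidylserine to the inner leaflet work against scramblases. In the flippase list 1 of 9 measured genes was lower (11.1%, against 9.35% of all genes) and 0 were higher (against 11.3%). At an unadjusted p under 0.05 by limma 1 was higher. The list median was -0.12. The gene that fell was Tmem30a, the subunit that most flippases need to leave the endoplasmic reticulum. Its values were 11.23, 11.14 and 11.18 with DMSO and 10.86, 10.89 and 10.88 with camptothecin, a difference of -0.30 (SE 0.06, adjusted p = 0.0180 by limma). The groups did not overlap. The catalytic subunits Atp8b1, Atp8b4, Atp9b, Atp10a, Atp11a and Atp11b, which span 100 kb or more, did not pass, with changes from -0.20 (Atp8b1) to 0.02 (Atp10a). Of these Atp8b1, Atp8b4 and Atp10a were dim, and 5 of the 9 measured genes were dim in all. The call of Tmem30a was lost when camptothecin replicate 3 or any one DMSO array was left out (-0.33 to -0.28).

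TMEM63 and TMC proteins are distant structural relatives of the anoctamins and include mechanically gated channels. Of 6 measured genes 1 was higher (16.7%, against 11.3% of all genes) and 0 were lower (against 9.35%). At an unadjusted p under 0.05 by limma 0 were lower too, and the list median was 0.02. Tmc4 rose by 0.65 (SE 0.10, adjusted p = 0.00676 by limma). Its values were 5.48, 5.57 and 5.83 with DMSO and 6.31, 6.20 and 6.29 with camptothecin, without overlap. Tmc4 was dim, as were Tmc1, Tmc2, Tmc5 and Tmem63a, and none of those other 4 passed.

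Other chloride channels and the cotransporters that set the chloride gradient went both ways. Of 24 measured genes 5 were lower (20.8%, against 9.35% of all genes) and 3 higher (12.5%, against 11.3%). The list median was 0.05. Lrrc8d, a subunit of the volume-regulated anion channel, had the largest change. Its values were 8.84, 8.87 and 8.86 with DMSO and 7.50, 7.83 and 7.58 with camptothecin, a difference of -1.22 (SE 0.10, adjusted p = 0.00036 by limma). The groups did not overlap, and the level was 2.33-fold lower. A second subunit of that channel, Lrrc8c, also fell (-0.52, SE 0.11, adjusted p = 0.0230 by limma). Its DMSO mean of 6.74 lay above 6.28, the median of all cluster means, and its camptothecin mean of 6.23 below it. Lrrc8c thus escaped the dim label only through the DMSO arrays. The obligatory subunit Lrrc8a (-0.17, SE 0.08, adjusted p = 0.191 by limma), Lrrc8b (-0.04) and the dim Lrrc8e (0.11) did not pass. Clcn1, the chloride channel of skeletal muscle, rose by 0.55 (SE 0.10, adjusted p = 0.0112 by limma), from 5.97, 5.92 and 6.15 with DMSO to 6.64, 6.41 and 6.65 with camptothecin. Its DMSO mean of 6.02 lay below 6.28, the median of all cluster means, and its camptothecin mean of 6.56 above it. Clcn1 thus escaped the dim label only through the camptothecin arrays.

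The other calls of that list were named after their values were seen. Among the endosomal exchangers, Clcn5 (-0.50, SE 0.07) and Clcn3 (-0.40, SE 0.11) fell, Clcn4 (0.26, SE 0.07) rose and Clcn6 (-0.05) did not pass. Slc12a2 (-0.32, SE 0.07), the cotransporter that brings chloride into immature neurons, fell, and Ttyh3 (0.41, SE 0.10) rose. Slc12a5, the cotransporter that takes chloride out of mature neurons, differed by 0.30 (SE 0.08, adjusted p = 0.0509) and missed the threshold. Clcn5 spans 154.6 kb and Lrrc8d 76.4 kb. The calls of Lrrc8d and Clcn5 held in all 13 alternatives. That of Clcn1 held with each array left out and was lost under ribosomal centring (0.30, adjusted p = 0.0975 by limma), as were those of Ttyh3 (0.17) and Clcn4 (0.01). That of Lrrc8c was lost when camptothecin replicate 2 or any one DMSO array was left out (-0.56 to -0.46), and that of Slc12a2 with camptothecin replicate 1 or any one DMSO array left out (-0.33 to -0.29). Clcn3 lost its call for camptothecin replicates 1 and 3 and DMSO replicates 1 and 2 (-0.41 to -0.32), Ttyh3 for camptothecin replicates 2 and 3 and each DMSO array (0.34 to 0.44), and Clcn4 whichever array was left out (0.22 to 0.31).

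Calcium is what opens or activates the anoctamins, and genes of its release from stores and of store-operated entry formed the last list. Of 19 measured members 1 was lower (5.26%, against 9.35% of all genes) and 2 were higher (10.5%, against 11.3%). The list median was 0.01. Stim2, a sensor of calcium in the endoplasmic reticulum, fell. Its values were 9.06, 9.05 and 8.995 with DMSO and 7.98, 8.27 and 8.03 with camptothecin, a difference of -0.94 (SE 0.09, adjusted p = 0.000823 by limma). The groups did not overlap, and the level was 1.92-fold lower. Its relative Stim1 differed by 0.08 (SE 0.07, adjusted p = 0.46), with a 95% interval from -0.07 to 0.24. The genes of the channels that Stim proteins open, Orai2 (0.37, SE 0.08, adjusted p = 0.0214) and Orai1 (0.25, SE 0.06, adjusted p = 0.0340), rose, and Orai3 (0.14, SE 0.08) did not pass. The calcium release channels Itpr1 (-0.21), Itpr2 (-0.24), Itpr3, Ryr1, Ryr2 and Ryr3 did not pass, nor did the Plcb and Plcg genes. The groups did not overlap for Itpr2 (adjusted p = 0.0633 by limma) and the dim Itpr1 (adjusted p = 0.0748 by limma). At an unadjusted p under 0.05 by limma, 5 genes of the list were lower and 3 higher.

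The 10 genes of that list that span 100 kb or more included Stim2 (125.7 kb), the only one of them called lower. Of all genes of that span 34.8% were lower. The count in the list depends on the threshold. The long genes Itpr1 (-0.21), Itpr2 (-0.24) and Plcb4 (-0.20) did not pass, although their groups did not overlap. Ryr2, Ryr3 and Plcb1 had changes below 0, and Ryr1, Stim1 and Plcg2 above 0, all with overlapping groups. The call of Orai2 was lost without DMSO replicate 2 or 3 (0.33 to 0.37), and that of Orai1 whichever array was left out (0.23 to 0.26). Ribosomal centring ended both calls, with Orai2 at 0.12 and Orai1 turned to -0.0032.

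**Figure D5:**
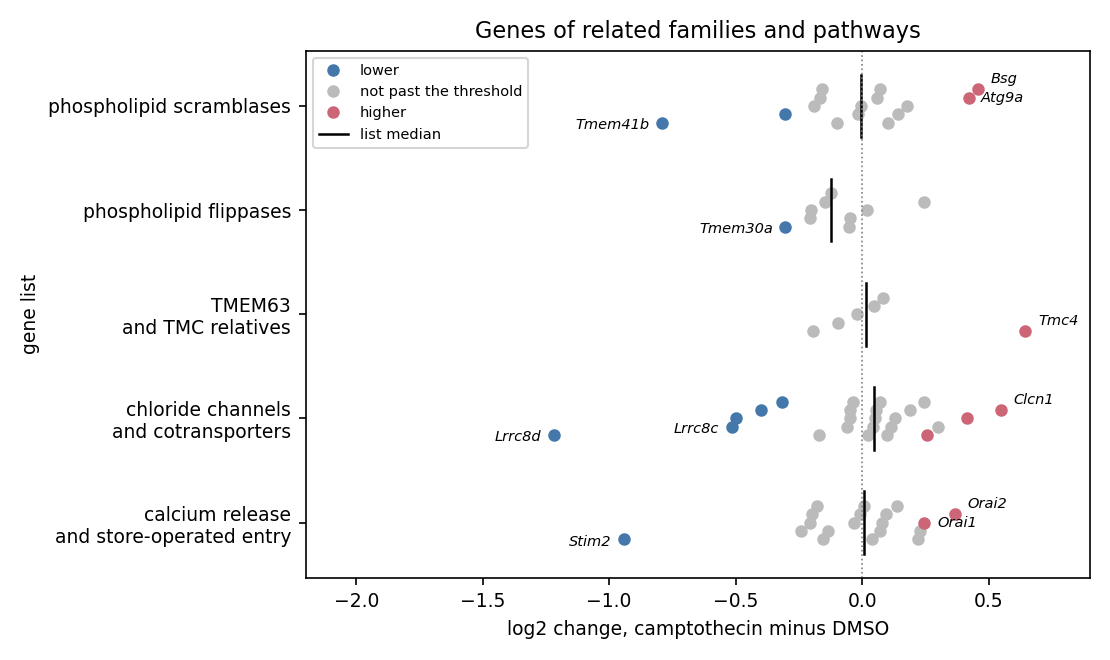
Log2 change, camptothecin minus DMSO (horizontal axis), of each measured gene in 5 lists (vertical axis; points are spread vertically for legibility), coloured by the call of the limma fit, with the list median as a bar. Each list holds points on both sides of 0, with medians from -0.12 to 0.05, and Lrrc8d, Stim2 and Tmem41b lie lowest.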

How the data were processed

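Total RNA from 6 cultures was profiled on Affymetrix Rat Gene 1.0 ST arrays. The deposited values are log2 expression values made with RMA and oligo, per the submitters' processing notes. Tool versions, probe annotation and build were not given in the sources used here. Of 29214 clusters the platform annotation gave 1 gene symbol to 15310, several to 323 and none to 13581. Only the first kind was named, with symbols updated through gene identifiers (15279 matched RefSeq GRCr8, 31 did not). A gene is represented by its row with the highest mean. GRCr8 served for names, spans, neighbours and upstream sequences.

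The values were tested as deposited with limma 3.58.1 in R 4.3.3 (lmFit and eBayes, camptothecin minus DMSO, two-sided, without a filter), and p-values were adjusted by Benjamini-Hochberg over the 29214 clusters, with 0.05 as the threshold. They reflect the spread of these cultures, which may be technical, and the number of arrays limits the precision. Between any pair of the 6 arrays, 14 to 34 of the 29214 values were exactly equal (a tolerance of 0). On simulated data for this comparison with 200 of 29214 clusters changed, the fit recovered 96.5% of changes of 2 on the log2 scale, 84% of changes of 1 and 0% of changes of 0.5. The real data had many more calls (1356 genes lower and 1643 higher), which loosens the Benjamini-Hochberg cutoff. Changes below 0.5 passed there, such as that of Tmem30a (-0.30), so these shares do not describe the sensitivity of the real fit.

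The members, the lists and the tests were chosen with earlier results of these data known. Named are all members, up to 3 genes past the threshold with the largest change in each list (or the 1 with the largest change), the 5 genes closest to Ano6 and the neighbours. Placeholder (LOC, RGD), receptor family (Olr, Vom) and small RNA (Mir, Snor) symbols were left out of the closest genes. Alternatives were quantile normalization again, centring each array on its median or on 68 ribosomal protein genes, dropping dim clusters, a block for the replicate number, a robust eBayes with trend, the mean over the rows of a gene, and leaving out each array.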

Additional observations from a re-analysis of the deposited data

How the results depend on the processing

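Over the 13 alternatives the change of Ano6, on which the family was selected, ran from -2.18 to -1.85, and that of Ano4 from -0.92 to -0.60. These ranges describe refits of the same arrays and support nothing about the members. Ano1 (-0.29 to 0.08) passed in none. Ano7 passed in 1, when arrays were centred on ribosomal protein genes (-0.28), which shifts the median of all clusters by -0.25. Lower anoctamins numbered 3 under that centring and 2 under each other alternative, and 0 were higher under any.

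Counts in the lists moved more. With ribosomal centring the lower genes numbered 6 scramblases, 6 flippases, 2 TMEM63 and TMC relatives, 10 chloride genes and 8 calcium genes, the higher ones 0 for scramblases, chloride and calcium genes, and Orai1 turned to -0.0032. With arrays centred on their median, 1 scramblase, 1 chloride gene and 1 calcium gene were higher and 4 calcium genes lower. With quantile normalization again, 1 scramblase and 4 calcium genes were lower and 1 calcium gene higher. Without dim clusters, 3 calcium genes were lower, 5 chloride genes higher and 0 TMEM63 and TMC relatives higher. With trend and robust, 5 chloride genes were higher. With the replicate block, 1 scramblase, 0 flippases and 2 chloride genes were lower, and 1 scramblase, 1 chloride gene and 0 calcium genes higher.

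With 1 array left out, the counts lower were 1 to 2 for scramblases, 0 to 1 for flippases, 0 for TMEM63 and TMC relatives, 2 to 4 for chloride genes and 1 for calcium genes. Those higher were 0 to 2, 0, 1, 1 to 3 and 0 to 1 in the same order. Of the 17 list genes past the threshold, 6 kept their call with each array left out, and 5 of them (Clcn5, Lrrc8d, Stim2, Tmc4 and Tmem41b) in every alternative that gave a value. Leaving out dim clusters gave none for Ano1, Ano7 and Tmc4. Fewer clusters or samples enter the dim and left-out settings; the cause of the other moves was not tested. The deviations of same-numbered samples of the treatments had correlations of -0.08, 0.02 and 0.08. With 3 arrays per treatment this cannot show whether such samples shared a dissection, and the labels do not say. The block gave 1039 lower and 892 higher genes, against 1356 and 1643 without it, and 2 of the 6 samples correlated best with their own number.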
